A study of Zea mays with 12 samples.

Results

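Whole maize seeds of the transgenic line L100 were compared with seeds of wild-type Q319, an inbred line, at 10 days after pollination (DAP). There were 3 RNA-seq libraries per line, 6 in all of the 12 libraries in the series, and the other 6 were made from the same lines at 15 DAP. The samples were chosen by their labelled genotype and stage, and every one of the 41430 gene models in the deposited tables entered. The labels name neither the transgene nor its promoter, nor the number of insertion events behind L100, so no targeted gene could be checked. Nor do they say whether the 3 libraries of a line came from separate plants or from pooled seeds. The p-values therefore reflect library-to-library spread, which may be technical. The libraries at 10 DAP are called wild type 1 to 3 and L100 1 to 3 below.

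A maize seed at the start of grain filling holds a starchy endosperm, an aleurone layer, a basal transfer layer that takes up sugars and amino acids from the mother plant, and an embryo, inside the maternal pericarp. Sucrose arrives through the transfer layer, is cleaved, and is turned into starch by way of ADP-glucose, while the endosperm starts to deposit storage proteins called zeins. Plasma membrane proton pumps drive much of the uptake, and chromatin proteins are in demand while the endosperm nuclei replicate their DNA.

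The 6 libraries held 14014035 to 16949091 counts each, and 27915 to 29534 gene models were detected per library. L100 2 detected the fewest, and its levels lay farthest from those of its own replicates, with a mean absolute log2 distance of 0.524 against 0.313 to 0.479 for the other 5 libraries. The replicates of L100 differed more from each other (chi-square per gene against counting error of 34.2 to 43.3) than those of wild type (12.2 to 16.7). Because whole seeds were sampled, fewer cells of a type and less RNA per cell cannot be told apart in any result below.

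Genes of every compartment list were found in all 6 libraries. The summed level of the 22 zein and protein body genes was 6326, 11810 and 7238 CPM (counts per 1e+06, after the scaling used for the tests) in wild type and 13100, 2716 and 6859 CPM in L100. The 16 starch synthesis genes summed to 6159, 8450 and 6888 CPM in wild type and to 9743, 3550 and 5563 CPM in L100. For both lists L100 1 was the highest of the 6 libraries and L100 2 the lowest, so the lines overlapped. Transfer layer genes summed to 2072 to 2897 CPM in wild type and 1600 to 2594 CPM in L100, and aleurone genes to 1292 to 1408 and 1191 to 1695 CPM. The 32 embryo, oil body and maturation genes summed to 2436 to 2490 CPM in wild type and to 1601 to 2205 CPM in L100, with no overlap, and the photosynthesis genes to 385 to 402 and 317 to 386 CPM, with overlap. The genes z1A1_8, al1, pl1, c1, wox13A, wox4, cab48 and OEE3 were at 0 in all 6. Single abundant genes made up much of some sums. The proton pyrophosphatase gene vpp1 averaged 504 CPM in wild type and 488 CPM in L100 within the aleurone list. In the photosynthesis list ppt1 averaged 171 and 162 CPM. Such genes need not be confined to the compartment, so these 2 sums do not measure the amount of aleurone or green tissue. The part that these differences in make-up play in the results below was not tested.

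**Figure D1:**
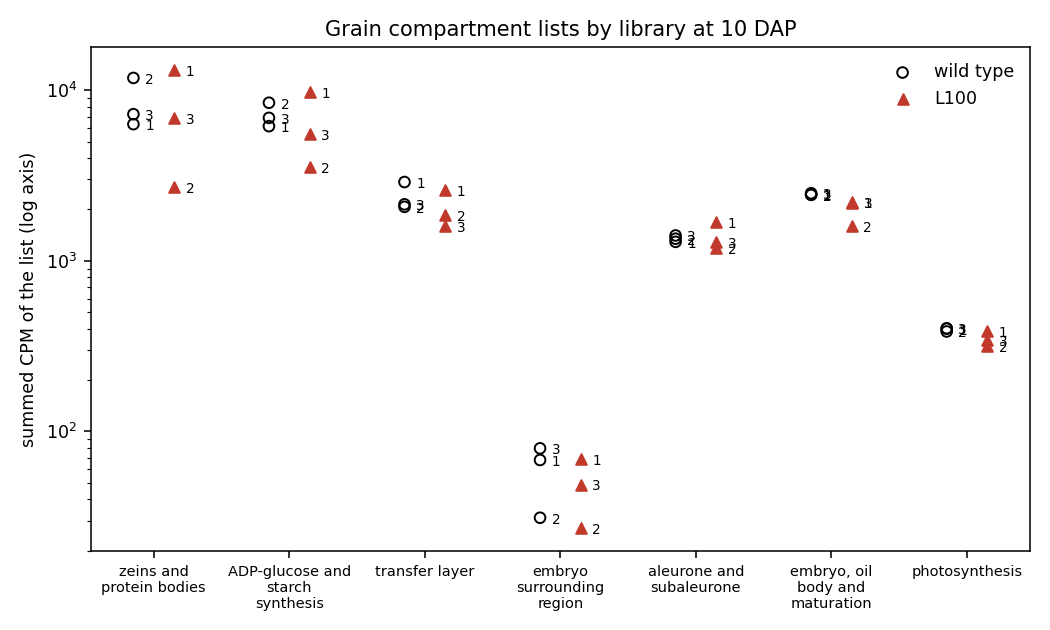
Summed level of 7 lists of seed compartment genes at 10 DAP, in CPM on a log axis; each point is 1 library and the digit beside it is the replicate number. L100 spans 2716 to 13100 CPM for zeins and 3550 to 9743 CPM for starch synthesis, wider than wild type in both lists.

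Of 24941 genes with enough counts to test, 749 (3.0%) differed between the lines at an adjusted p under 0.05 by edgeR's quasi-likelihood test with Benjamini-Hochberg adjustment, and these genes are said below to have passed. In L100, 439 genes (1.76%) were higher and 310 (1.24%) were lower. At least 2-fold differences were found for 467 genes (1.87%), 295 higher (1.18%) and 172 lower (0.690%), so 282 of the genes that passed differed by less. The median size of a difference that passed was 1.35 on the log2 scale, and 58 of the genes that passed had a mean over 100 CPM (24 higher and 34 lower). Values of the lines did not overlap for 6814 of all tested genes (27.3%) and for 745 of the 749. DESeq2 called 2006 genes (8.04%) and limma-voom 713 (2.86%). The count was 302, 236 and 355 without wild type 1, 2 and 3, 354 without L100 2 and 1261 without L100 3 at 15 DAP, which shares the estimate of spread. The calls of 196 genes, 116 higher and 80 lower, were kept without each of the 12 libraries in turn.

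**Figure D2:**
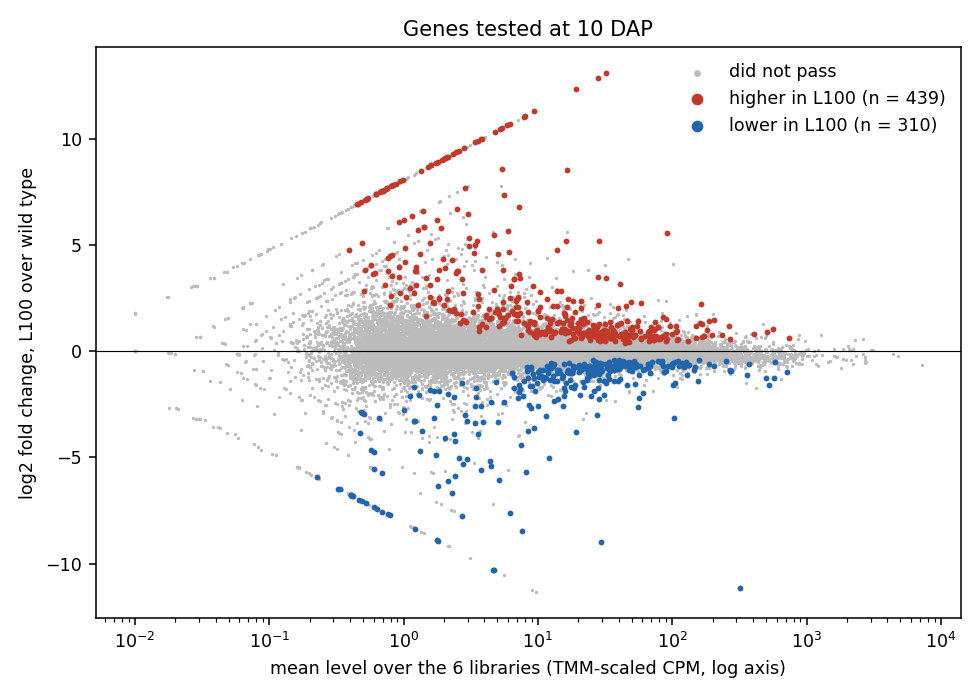
Log2 fold change of L100 over wild type at 10 DAP against the mean level of the 6 libraries (CPM, log axis), 1 point per gene tested. The 439 genes that passed as higher (red) and the 310 that passed as lower (blue) occur at low and high mean levels, and the outermost straight line of points in each direction holds genes with 0 counts in one line.

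Gene functions were described with 37 lists matched by gene symbol, covering 1072 tested genes. Of these, 39 passed (3.64%), 20 higher and 19 lower in L100, against 3.0% of all tested genes. The 39 were spread over 23 lists, and 14 lists had no member that passed. For the counts at an unadjusted p under 0.05 below, 10.7% of all tested genes were higher and 9.16% lower. The median log2 fold change of all tested genes was 0.01. Histones (-0.60) and transfer layer genes (-0.37) had the lowest list medians, and zeins (1.28), jasmonate and lipoxygenase genes (0.47) and fatty acid and membrane lipid genes (0.42) the highest, while the other 32 lay between -0.33 and 0.24. Scaling by library totals shifted the median of all genes by 0.07, and none of these 5 medians changed sign with it.

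**Figure D3:**
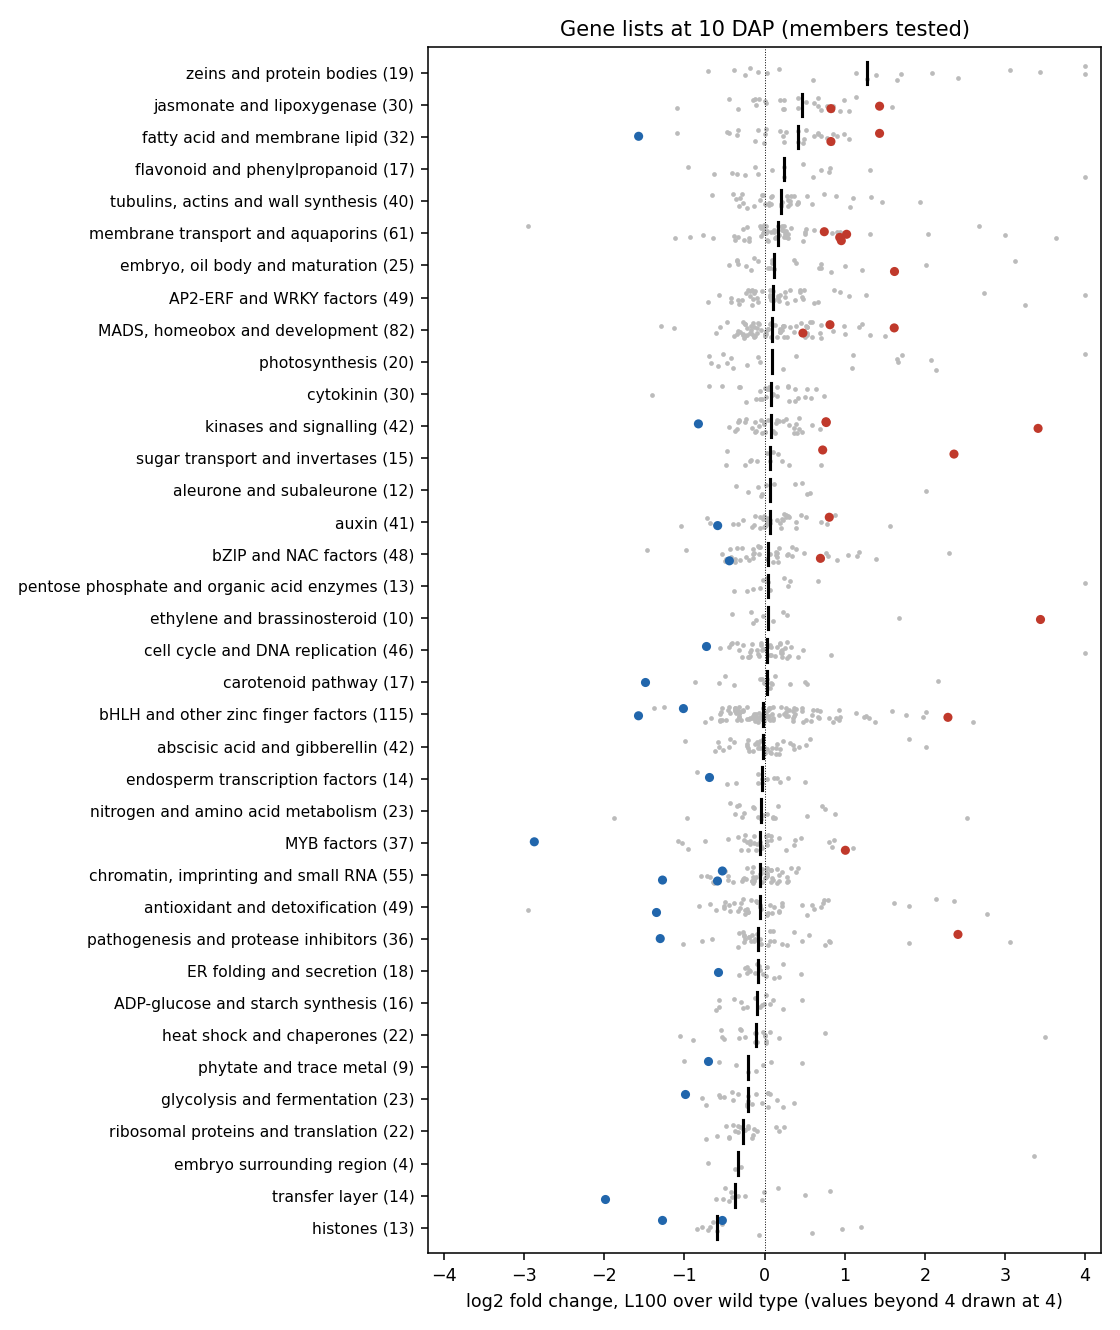
Log2 fold change of L100 over wild type at 10 DAP for each tested member of the 37 lists (number tested in brackets), ordered by the list's median (black bar). Red and blue points passed as higher and lower, grey points did not pass, and values beyond 4 are drawn at 4. Histones have the lowest median (-0.60) and zeins the highest (1.28), yet no zein passed.

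Among 15 tested genes for sugar transport, invertases and sucrose phosphate synthase, 2 passed as higher and 0 as lower. At an unadjusted p under 0.05 there were 3 (20%), against 19.9% of all tested genes, and the list median of 0.07 was -0.04 without wild type 1. The gene sps1 (GRMZM5G875238), for a sucrose phosphate synthase, was at 7.71, 4.74 and 5.20 CPM in wild type and at 22.4, 27.7 and 40.9 CPM in L100. That is 5.15-fold higher (2.36, SE 0.44, adjusted p = 0.0186; the first value in such brackets is the log2 fold change of L100 over wild type, and adjusted p is from edgeR). The sucrose transporter gene sut1 was higher by 0.73 on the log2 scale (SE 0.15, adjusted p = 0.0244), with 53.9 to 75.4 CPM in wild type and 95.3 to 116 CPM in L100. The cell wall invertase gene incw1 did not pass (0.70, adjusted p = 0.128). The calls of sps1 and sut1 ended without wild type 1 or 2 or L100 2, that of sps1 also without wild type 3 and that of sut1 also without L100 1 (highest adjusted p 0.105 and 0.121).

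Of 23 tested glycolysis and fermentation genes 1 passed (4.35%), the alcohol dehydrogenase gene adh1, as lower. It had 1064, 917 and 883 CPM in wild type and 478, 448 and 515 CPM in L100, and fell 1.99-fold (-0.99, SE 0.21, adjusted p = 0.0268). Every L100 library was at about one level, well under every wild-type library. Of the 23, 16 had a negative value, and 6 were lower and 0 higher at an unadjusted p under 0.05 (4957 of all tested genes, 19.9%, lay under that p, 9.16% as lower). These were adh1, the enolase genes eno1 (-0.78) and eno2 (-0.33), the glyceraldehyde phosphate dehydrogenase genes gpc4 (-0.55) and GAPC3 (-0.51), and 1 of 2 models matched uncertainly to phi1 (-0.57), for phosphohexose isomerase. For eno1 the wild-type libraries held 2277, 2485 and 2110 CPM and the L100 libraries 1453, 1069 and 1476 CPM, without overlap (adjusted p = 0.0807). The list median was -0.21, and between -0.31 and -0.11 when any 1 of the 6 libraries was left out. L100 2 was the lowest of the 6 libraries in 12 of the 23 genes. The call of adh1 ended without any wild-type library at 10 DAP or without L100 1 or 2 (highest adjusted p 0.0992). At 15 DAP adh1 was again lower (-1.10, adjusted p = 0.011).

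No starch gene passed. Of 16 tested genes for ADP-glucose and starch synthesis 0 passed by edgeR, DESeq2 or voom, with 0 higher and 2 lower at an unadjusted p under 0.05. The 2 were sh2, the large subunit of ADP-glucose pyrophosphorylase, and the branching enzyme gene SBEIIb. The median was -0.09, and it was -0.48 without L100 1 and 0.02 without wild type 2. In 10 of the 16 genes L100 2 was the lowest of the 6 libraries, and in 8 of the 16 L100 1 was the highest. Sucrose synthase gene sus1, with the most counts of the list, had 1208, 1645 and 1755 CPM in wild type and 2583, 1147 and 1241 CPM in L100 (0.11, adjusted p = 0.896), so 1 L100 library stood above all others and the lines overlapped. Among 13 genes of the pentose phosphate path and organic acid metabolism 0 passed by edgeR, while DESeq2 called 1 and voom 0, and 2 were higher and 0 lower at an unadjusted p under 0.05. The malate dehydrogenase gene mdh4 had 599 to 617 CPM in wild type and 530 to 745 CPM in L100 (0.04, SE 0.13, adjusted p = 0.889).

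Membrane transport genes that passed were all higher in L100. They were 4 of 61 tested (6.56%), with a list median of 0.17. Of all tested genes 3.0% passed, 1.76% as higher. At an unadjusted p under 0.05 there were 11 of the list (18%), against 19.9% of all tested genes. The plasma membrane proton pump genes mha2 and mha4 provide the gradient used by many carriers. For mha2 (GRMZM2G019404) the levels were 344, 375 and 397 CPM in wild type and 704, 856 and 708 CPM in L100. That is 2.03-fold higher (1.02, SE 0.19, adjusted p = 0.0157), with the lines well apart. Levels of mha4 were 167, 170 and 191 CPM against 285, 284 and 315 CPM, or 1.68-fold higher (0.75, SE 0.18, adjusted p = 0.044). The aquaporin-family gene nip3a (GRMZM2G176209, chr1:223907672-223910808) had 70.1, 73.2 and 76.7 CPM in wild type and 122, 144 and 161 CPM in L100, 1.94-fold higher (0.96, SE 0.13, adjusted p = 0.00297). The yellow stripe-like gene ysl11 (GRMZM5G812538, chr10:131906647-131914525), of a family that carries metal chelates, had 20.9, 25.7 and 27.6 CPM against 53.9, 42.9 and 45.4 CPM (0.94, SE 0.14, adjusted p = 0.0049). Both nip3a and ysl11 kept their calls without each library and were also higher at 15 DAP (0.87 and 0.69, adjusted p = 0.0041 and 0.017). Off the list, the nitrate transporter gene NRT1.2, chosen after its values were seen, was 1.97-fold higher (0.98, SE 0.19, adjusted p = 0.0168; 45.2 to 48.7 CPM against 79.8 to 103 CPM). The proton pyrophosphatase gene vpp1, with the most counts of the aleurone list, had 458 to 589 CPM in wild type and 410 to 616 CPM in L100 (-0.05, SE 0.19). The calls of mha2 and NRT1.2 ended without any wild-type library at 10 DAP or L100 2 (highest adjusted p 0.0801 and 0.0939), and that of mha4 without any library other than L100 1 and L100 3 at 15 DAP (0.178). The model of mha2 overlaps another, and without a stated strand setting their reads cannot be told apart.

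Genes of the lipoxygenase and jasmonate group that passed were both higher in L100. Lipoxygenases oxidise polyunsaturated fatty acids, and allene oxide synthase, allene oxide cyclase and oxophytodienoate reductase carry one product on to jasmonate. Of 30 tested, 23 had a positive value, 2 passed as higher (6.67%), and 9 were higher and 1 lower at an unadjusted p under 0.05. Of all tested genes 3.0% passed, and 10.7% were higher and 9.16% lower at that unadjusted p. The gene lox3 (GRMZM2G109130, chr1:264266297-264271192) had 81.4, 94.7 and 128 CPM in wild type and 241, 273 and 309 CPM in L100. It was 2.70-fold higher (1.44, SE 0.22, adjusted p = 0.00501). The reductase gene opr7 (GRMZM2G148281, chr1:207946556-207950001), of jasmonate synthesis, had 29.6, 31.3 and 28.8 CPM in wild type and 53.0, 53.7 and 52.6 CPM in L100. It was 1.78-fold higher (0.83, SE 0.11, adjusted p = 0.00202), with replicates close together in both lines. Both calls were kept without each library, and both genes were also higher at 15 DAP (1.26 and 0.85, adjusted p = 0.0072 and 0.0016). Both genes lie on chromosome 1 from 200 Mb on, where 11.3% of tested genes passed.

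Other members of the same group did not pass on their own. The lipoxygenase genes lox1 (0.77), lox10 (0.998), lox6 (0.70), lox5 (0.61) and lox9 (0.42) and the synthesis genes aos1 (0.52) and opr6 (0.67) were higher at an unadjusted p under 0.05, and aoc2 (-0.44) was lower. For lox1 the wild-type libraries held 553, 561 and 819 CPM and the L100 libraries 1223, 858 and 1226 CPM (adjusted p = 0.224). For lox9 the values were 20.6, 21.1 and 21.1 CPM and 27.9, 27.2 and 28.8 CPM, close within each line and apart between them (adjusted p = 0.101). The median of the list was 0.47, and 0.33 to 0.59 when any 1 of the 6 libraries was left out.

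The list of fatty acid and membrane lipid genes shares the lipoxygenases and opr7 and added 1 gene that passed. The desaturase gene fad6 (GRMZM2G078569, chr1:211664472-211671955) fell 2.97-fold, from 149, 147 and 158 CPM in wild type to 39.4, 54.5 and 58.7 CPM in L100 (-1.57, SE 0.16, adjusted p = 0.000354). It was lower at 15 DAP too (-1.18, adjusted p = 0.0021), and its call was kept without each library, but the name matched uncertainly. Of the 32 genes tested, 11 were higher and 3 lower at an unadjusted p under 0.05 (10.7% and 9.16% of all tested genes). The phospholipase gene PLD1 (0.48, adjusted p = 0.0807) and the plastid desaturase gene fad7 (0.90, adjusted p = 0.131) were among the higher ones and the thioesterase gene FatB (-0.47, adjusted p = 0.19) among the lower.

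Of 17 carotenoid genes 1 passed, and it had the smallest adjusted p of any list member. Beta-carotene hydroxylase gene BCH2 (GRMZM2G152135, chr10:136081567-136084723) converts beta-carotene towards zeaxanthin. The wild-type libraries held 153, 153 and 155 CPM, a spread of 1.18 CPM (SD, n = 3), and the L100 libraries 64.8, 44.3 and 54.6 CPM. It was 2.81-fold lower (-1.49, SE 0.15, adjusted p = 0.000279), and the call was kept without each library. The other 16 did not pass, and the list median of 0.03 was -0.09 without wild type 1.

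No member of the phenylpropanoid and cell wall lists passed, but these counts depend on how symbols are spelled. The lignin gene CCR and the glucan synthase family gene CslF6-1 passed, and the symbol patterns of the lists missed both. Of 17 flavonoid and phenylpropanoid genes 0 passed by edgeR, while DESeq2 called 3 and voom 0, and 4 were higher and 1 lower at an unadjusted p under 0.05. Positive values were found for 10 of the 17 and negative ones for 7, with a median of 0.24 that was 0.06 without wild type 2. Of all tested genes, 10.7% were higher at that p. The phenylalanine ammonia lyase gene PAL1 had 657, 788 and 998 CPM in wild type and 1434, 1040 and 923 CPM in L100 (0.48, SE 0.22, adjusted p = 0.258), with overlap. The lignin methyltransferase gene comt had 54.8, 48.9 and 63.0 CPM against 91.9, 232 and 91.0 CPM (1.32, adjusted p = 0.0506). Its model overlaps that of AC196475.3_FG004, described below, so their reads cannot be told apart. The cinnamoyl-CoA reductase gene CCR, an enzyme of lignin precursor synthesis chosen after its values were seen, passed with 67.9 to 77.6 CPM in wild type and 124 to 166 CPM in L100 (1.88-fold; 0.91, SE 0.18, adjusted p = 0.0208). Its call ended without any wild-type library at 10 DAP or L100 2 (highest adjusted p 0.109). Among 40 genes for tubulins, actins and wall synthesis 0 passed by edgeR, while DESeq2 called 4 and voom 0, and 12 were higher and 2 lower at an unadjusted p under 0.05. These included the cellulose synthase genes cesa6 (0.59, adjusted p = 0.0681), cesa2 (0.53), cesa10 (0.40), cesa5 (0.32), cesa7 (0.32) and CesA12 (1.47). For cesa6 the values were 195, 189 and 207 CPM and 279, 302 and 311 CPM, without overlap. L100 2 was the highest of the 6 libraries in 19 of the 40. The tubulin gene TUA2, with the most counts, was at 2063 to 2209 CPM in wild type and 2177 to 2389 CPM in L100 (0.09, SE 0.12).

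Zein genes ranged widely among the L100 libraries, and none passed. Of 19 tested genes for zeins and protein bodies 0 passed by edgeR, while DESeq2 called 2 and voom 0, and 5 were higher and 1 lower at an unadjusted p under 0.05. The 5 were alpha-zein genes. For z1A2_1 the values were 19.5, 32.7 and 21.7 CPM in wild type and 311, 36.6 and 47.0 CPM in L100 (2.41, adjusted p = 0.108). For z1C1_4 they were 30.1, 77.5 and 79.0 CPM and 427, 41.5 and 121 CPM (1.66, adjusted p = 0.222). L100 1 was the highest of the 6 libraries in 15 of the 19 genes and L100 2 the lowest in 7. Without L100 1 the list median of 1.28 was 0.11, and without L100 2 it was 1.65. The gamma-zein gene gz27, with the most counts of the list, had 4057, 7163 and 4400 CPM against 7594, 1683 and 3935 CPM (-0.24, SE 0.43, adjusted p = 0.8). Members of these families are near-identical copies, so their separate values are uncertain.

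Around the zeins, 1 endosperm regulator and 1 endoplasmic reticulum gene passed, both as lower. The gene ohp1, for a bZIP factor that pairs with opaque2 on storage protein promoters, was at 46.8, 46.6 and 37.5 CPM in wild type and 26.0, 27.4 and 27.9 CPM in L100 (-0.69, SE 0.11, adjusted p = 0.00853). It was 1 of 14 endosperm factors, and its call ended without wild type 2 (adjusted p 0.0519). The ohp1 model overlaps 3 others. The gene derlin4, of a family that moves misfolded proteins out of the endoplasmic reticulum, was 1 of 18 for folding and secretion and was 1.5-fold lower (-0.58, SE 0.13, adjusted p = 0.0398; 60.8 to 69.8 CPM against 38.0 to 48.2 CPM). Its call ended without any wild-type library at 10 DAP, L100 1 or 2, or, at 15 DAP, wild type 3, L100 1 or L100 2 (highest adjusted p 0.148). The binding protein genes b-70 (0.03, SE 0.18) and bip2 (0.45, adjusted p = 0.461) and the disulfide isomerase gene pdi (-0.06) did not pass.

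Of 14 transfer layer genes 1 passed, as lower, and it was also the 1 with an unadjusted p under 0.05 (7.14% of the list, against 19.9% of all tested genes). The basal layer gene bap-3b (GRMZM2G133370, chr10:81055765-81066315), of a family of small secreted antifungal proteins, fell 3.96-fold, from 118, 78.9 and 91.5 CPM to 15.5, 22.8 and 34.4 CPM (-1.99, SE 0.31, adjusted p = 0.00629). No single library ended this call, and the gene was lower at 15 DAP as well (-2.84, adjusted p = 0.0034). Its model overlaps another one. In 11 of the 14 the value was negative, with a median of -0.37, for example in bap2 (-0.52, adjusted p = 0.283), MEG1 (-0.49), betl10 (-0.41) and the cell wall invertase gene INCW2 (-0.24), while bap-1a was 0.81 (adjusted p = 0.38). L100 3 was the lowest of the 6 libraries in 8 of the 14. Members of the family share sequence, so reads may be divided among them. In the embryo surrounding region 0 of 4 genes passed by edgeR, while DESeq2 called 1 and voom 0, and 1 were higher and 0 lower at an unadjusted p under 0.05. ESR1c1 held 42.7, 14.4 and 43.7 CPM in wild type and 40.4, 12.2 and 29.8 CPM in L100. For the aleurone, 0 of 12 passed by edgeR, while DESeq2 called 2 and voom 0, and 2 were higher and 0 lower at an unadjusted p under 0.05.

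Of 25 embryo and maturation genes the homeobox gene kn1 alone passed. It (GRMZM2G017087) is active in meristems and had 4.11, 5.08 and 5.96 CPM in wild type and 10.6, 17.7 and 18.3 CPM in L100, and was 3.07-fold higher (1.62, SE 0.32, adjusted p = 0.0217). Its call ended without any wild-type library at 10 DAP or L100 2 (highest adjusted p 0.0945). Of the 25, 17 had a positive value, with a median of 0.12, although the summed level of the list was lower in L100. At an unadjusted p under 0.05, 7 were higher, among them kn1 and the related gene lg3 (0.83, adjusted p = 0.0835), and 1 was lower, knox6 (-0.35, adjusted p = 0.226). The dehydrin gene rab17 had 2.09, 3.68 and 6.01 CPM against 14.6, 28.5 and 4.60 CPM, with overlap (2.01, adjusted p = 0.0925), and the oleosin gene ole1 had 245, 394 and 364 CPM against 518, 168 and 168 CPM (-0.23).

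Chromatin and histone genes that passed were all lower in L100. Linker histones bind the DNA between nucleosomes, and core histones are made mainly during DNA replication. Of 13 histone genes 2 passed as lower (15.4%) and 0 as higher, 10 had negative values, and 6 were lower (46.2%) and 0 higher at an unadjusted p under 0.05. Of all tested genes, 1.24% passed as lower and 9.16% were lower at that unadjusted p. The linker histone gene hon110 (GRMZM2G164020) fell 2.42-fold, from 961, 713 and 756 CPM to 333, 297 and 375 CPM (-1.27, SE 0.27, adjusted p = 0.0308). The gene hon101 fell 1.44-fold, from 703, 707 and 649 CPM to 516, 410 and 503 CPM (-0.53, SE 0.13, adjusted p = 0.0462). Both were lower at 15 DAP too (-1.14 and -0.52, adjusted p = 0.031 and 0.032). The others at an unadjusted p under 0.05 were histone2b1 (-0.53, adjusted p = 0.0708), his1a (-0.69), his2a1 (-0.70) and 1 of 3 models matched uncertainly to H4C13 (-0.77). The list median was -0.60, and -0.76 to -0.44 when any 1 of the 6 libraries was left out. L100 2 was the lowest of the 6 libraries in 9 of the 13. The calls of hon110 and hon101 ended without any of 6 and 10 libraries (highest adjusted p 0.112 and 0.169), among them every wild-type library at 10 DAP and L100 1 and 2.

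Of 55 genes for chromatin, imprinting and small RNA 3 passed (5.45%, against 3.0% of all tested genes), all as lower, and 2 of them were the linker histones. The remaining one, hdt102, encodes a histone deacetylase of the plant-specific family. Its levels were 438, 452 and 457 CPM in wild type and 319, 272 and 306 CPM in L100, 1.5-fold lower (-0.59, SE 0.13, adjusted p = 0.03). The high mobility group gene hmg2, for a DNA-binding chromatin protein, was chosen after its values were seen and was 1.46-fold lower (-0.55, SE 0.12, adjusted p = 0.0379). The Polycomb gene fie1, an imprinted gene of the endosperm, had 96.3 to 102 CPM against 66.1 to 79.2 CPM, without overlap, and did not pass (-0.46, adjusted p = 0.0944). Calls of hdt102 and hmg2 ended without any wild-type library at 10 DAP, L100 2, or L100 2 at 15 DAP, and that of hmg2 also without L100 1 or, at 15 DAP, wild type 2 or 3 or L100 1 (highest adjusted p 0.106 and 0.121).

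Among 46 cell cycle and DNA replication genes 1 passed. The D-type cyclin gene cycD2 (GRMZM2G075117, chr4:179655273-179658332), of a class that drives entry into DNA replication, had 66.6, 66.6 and 69.1 CPM in wild type and 40.3, 37.4 and 44.1 CPM in L100. It was 1.66-fold lower (-0.73, SE 0.10, adjusted p = 0.00244), a call kept without each library. At an unadjusted p under 0.05 there were 3 higher and 2 lower genes (10.9% of the list), cycD2 and the replication clamp gene pcna2 (-0.56, adjusted p = 0.145) being the lower ones, and the list median was 0.03. Ribosomal protein and translation genes had small differences, mostly of one sign. Of 22 tested 0 passed by edgeR, while DESeq2 called 3 and voom 0. At an unadjusted p under 0.05, 0 were higher and 7 lower, against 10.7% and 9.16% of all tested genes. Values were negative for 19 of the 22, with a median of -0.26, or -0.34 to -0.25 when any 1 of the 6 libraries was left out and -0.18 with library totals. The elongation factor gene EF1A, with the most counts, had 2456, 2635 and 2453 CPM against 2096, 2139 and 2279 CPM (-0.21, adjusted p = 0.404).

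Transcription factor genes that passed went in both directions. The homeobox gene HB112 (GRMZM2G003304, chr1:218768620-218773352) had 33.3, 29.7 and 30.8 CPM in wild type and 48.1, 64.5 and 52.5 CPM in L100, 1.76-fold higher (0.82, SE 0.12, adjusted p = 0.00498). The bZIP gene OBF1 (GRMZM2G479885, chr1:147171414-147171869) had 63.5, 52.1 and 56.7 CPM against 84.5, 106 and 88.8 CPM, 1.62-fold higher (0.70, SE 0.11, adjusted p = 0.00804). In the other direction bHLH17 (GRMZM2G137358, chr1:289415573-289418788) had 22.8, 24.0 and 21.2 CPM against 11.7, 10.2 and 11.8 CPM, 2.02-fold lower (-1.01, SE 0.13, adjusted p = 0.00144). These 3 calls were kept without each library, and bHLH17 was lower at 15 DAP too (-0.52, adjusted p = 0.031).

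By family, 3 of 82 MADS, homeobox and developmental genes on the list passed as higher (HB112, kn1 and sbp17) and 0 as lower. The list's pattern does not match the symbol m21, of a gene described below that passed as lower (-1.49, adjusted p = 0.0149). Another gene carries both m6 and zmm6 as names, so m21 may belong to the MADS genes, which was not checked. The SPL-type gene sbp17 was 1.39-fold higher (0.48, SE 0.11, adjusted p = 0.0446), from 73.8 to 77.3 CPM to 98.9 to 115 CPM. Of 48 bZIP and NAC genes OBF1 passed as higher and NAC120 as lower (-0.44, SE 0.11, adjusted p = 0.0494). Of 37 MYB genes MYB167 passed as higher (1.01, SE 0.21, adjusted p = 0.0248) and MYB93 as lower, the latter at 0.735 to 1.07 CPM in wild type and 0.0522 to 0.231 CPM in L100 (-2.87, SE 0.68, adjusted p = 0.0449). Limma-voom called neither NAC120 nor MYB93. Of 115 bHLH and other zinc finger genes bHLH35 passed as higher (2.29, adjusted p = 0.0296; 0.379 to 0.668 CPM against 1.91 to 3.97 CPM), and bHLH17 and bHLH161 as lower (-1.57, SE 0.36, adjusted p = 0.0449 for bHLH161). Of 49 AP2-ERF and WRKY genes 0 passed by edgeR, while DESeq2 called 2 and voom 0, and 9 were higher and 1 lower at an unadjusted p under 0.05. The calls of sbp17, NAC120, MYB167, MYB93, bHLH35 and bHLH161 each ended when wild type 1, wild type 2, L100 2 or any of up to 8 further libraries was left out (highest adjusted p 0.185, 0.134, 0.128, 0.14, 0.122 and 0.146).

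Hormone genes outside the jasmonate group differed singly. Of 41 auxin genes 1 passed in each direction. The gene br2, for a P-glycoprotein that moves auxin, was 1.75-fold higher (0.81, SE 0.16, adjusted p = 0.0201), with 74.1, 70.7 and 73.3 CPM in wild type and 142, 129 and 112 CPM in L100. The gene AUX6 was 1.5-fold lower (-0.59, SE 0.12, adjusted p = 0.0232), with 31.3 to 36.7 CPM against 21.3 to 24.7 CPM. The ethylene-forming oxidase gene ACO31 had 0.253, 0.134 and 0.325 CPM in wild type and 3.47, 3.48 and 1.10 CPM in L100 (3.44, SE 0.70, adjusted p = 0.023). It was 1 of 10 ethylene and brassinosteroid genes, and limma-voom did not call it. Of 30 cytokinin genes 0 passed by edgeR, while DESeq2 called 2 and voom 0, and 4 were higher and 3 lower at an unadjusted p under 0.05. Of 42 genes for abscisic acid and gibberellin 0 passed by edgeR, while DESeq2 called 3 and voom 0, and 4 were higher and 3 lower at an unadjusted p under 0.05. Calls of br2 and ACO31 ended without any library at 10 DAP other than L100 3 (highest adjusted p 0.114 and 0.117), and that of AUX6 without wild type 1 or 2 or L100 1 (0.0748).

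Calcium signalling, defence and detoxification genes also differed singly. Of 42 kinase and signalling genes 3 passed as higher and 1 as lower. The calcium sensor gene CBL5 had 1.14, 1.27 and 0.975 CPM in wild type and 10.4, 13.4 and 12.4 CPM in L100, 10.7-fold higher (3.41, SE 0.73, adjusted p = 0.0325). The calcium-dependent kinase gene ZmCDPK1 (0.77, SE 0.17, adjusted p = 0.0306) and the gene CK1 (0.77, SE 0.16, adjusted p = 0.0244) were about 1.70-fold higher, and cki2 was 1.77-fold lower (-0.83, SE 0.20, adjusted p = 0.0498), though its model overlaps another. Among 36 genes for pathogenesis proteins and protease inhibitors MFSP (GRMZM2G066801, chr1:252863768-252868114) passed as higher, with 1.58, 2.41 and 2.49 CPM against 10.3, 14.3 and 10.0 CPM (5.33-fold; 2.41, SE 0.28, adjusted p = 0.000792). The cysteine protease inhibitor gene cc8 (GRMZM2G401374, chr1:79147545-79147928), a cystatin, passed as lower, with 54.5, 39.4 and 49.4 CPM against 22.6, 21.5 and 14.1 CPM (2.46-fold; -1.30, SE 0.23, adjusted p = 0.0119). The calls of MFSP and cc8 were kept without each library. MFSP stands on the pathogenesis list by its symbol alone, and a role in defence was not checked.

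Of 49 antioxidant and detoxification genes the glutathione transferase gene gst6 passed, as lower (-1.35, SE 0.30, adjusted p = 0.0397), with 50.6, 50.5 and 22.8 CPM in wild type and 16.7, 11.9 and 20.01 CPM in L100. Wild type 3 stood close to the L100 values there, and limma-voom did not call gst6. A further 10 genes were higher and 5 lower at an unadjusted p under 0.05, among them the thioredoxin gene trh2 (-0.81, adjusted p = 0.0896), which had 273, 279 and 141 CPM against 134, 134 and 126 CPM. Of 9 phytate and trace metal genes lpa3, for the myo-inositol kinase of phytic acid synthesis, was 1.63-fold lower (-0.71, SE 0.16, adjusted p = 0.0382; 25.3 to 29.5 CPM against 13.9 to 18.8 CPM). Of 22 heat shock and chaperone genes 0 passed by edgeR, while DESeq2 called 2 and voom 0. At an unadjusted p under 0.05, 1 was higher and 1 lower. At 15 DAP 13 of the 22 passed, against 6.66% of all tested genes, a contrast between stages that was not tested for the list. Of 23 genes for nitrogen and amino acid metabolism 0 passed by edgeR, while DESeq2 called 0 and voom 0, and 2 were higher and 3 lower at an unadjusted p under 0.05. The list's symbol pattern missed the spelling of NRT1.2, which passed as higher, and of TSA, which passed as lower. The glutamine synthetase gene gln4 had 154 to 176 CPM against 213 to 383 CPM, without overlap (0.71, adjusted p = 0.185). Of 20 photosynthesis genes 0 passed by edgeR, while DESeq2 called 2 and voom 0, and 1 were higher and 2 lower at an unadjusted p under 0.05.

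The calls of CBL5, ZmCDPK1, CK1, cki2, gst6 and lpa3 each ended without wild type 1, wild type 2, L100 1 or L100 2 and, apart from CK1, without at least 1 further library (highest adjusted p 0.132, 0.117, 0.129, 0.15, 0.154 and 0.137).

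**Figure D4:**
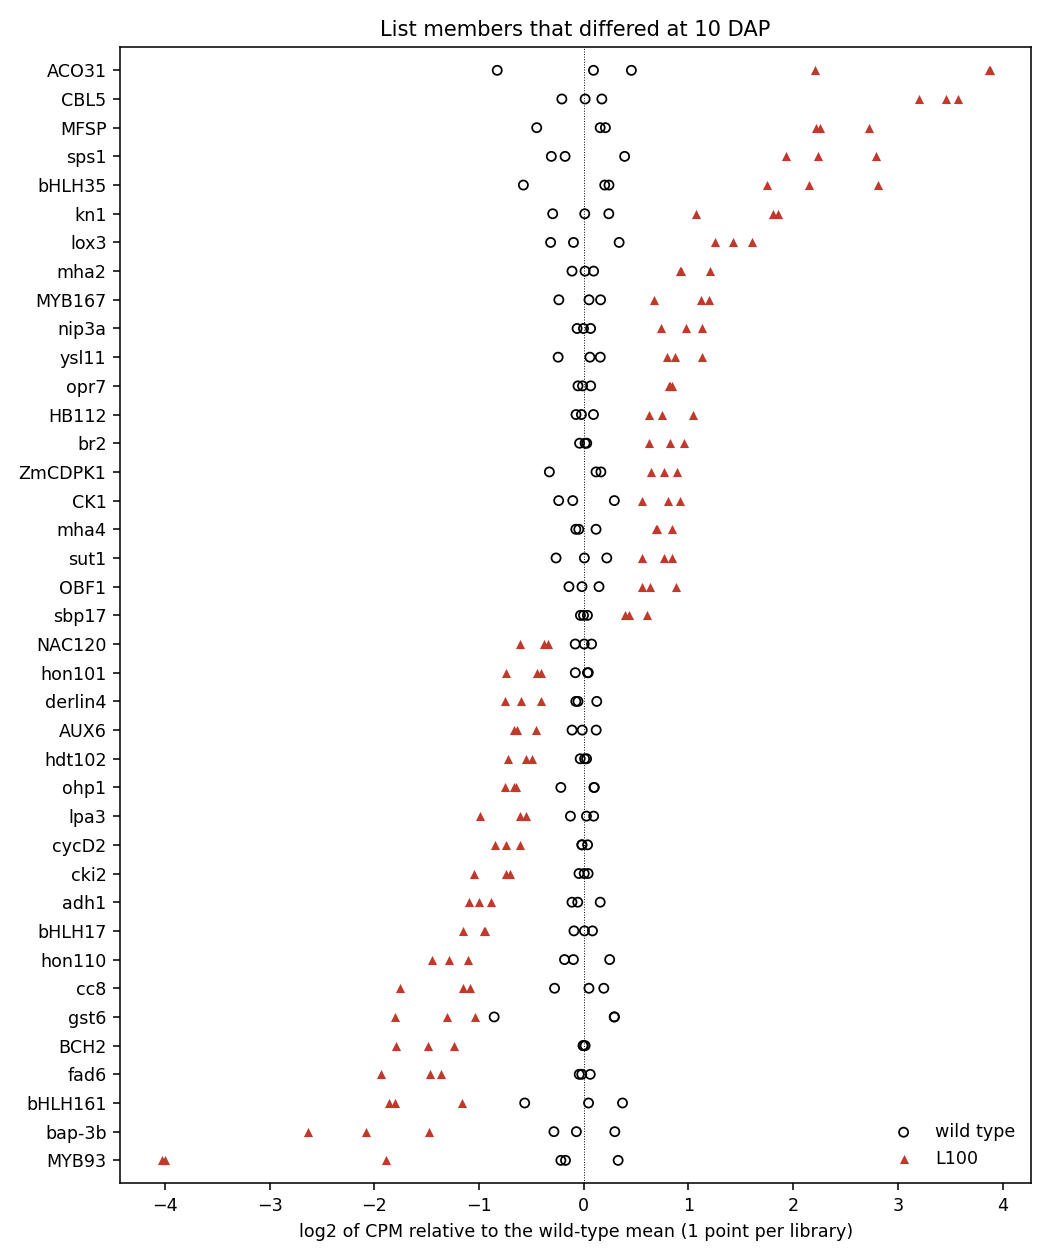
Level in each library relative to the wild-type mean, on the log2 scale, for the 39 list members that passed at 10 DAP (open circles wild type, red triangles L100, 1 point per library; levels below 0.05 CPM are drawn there). The lines do not overlap for any of the 39, which were chosen for their difference. On this relative scale BCH2 shows the tightest wild-type libraries (152.7 to 154.8 CPM), and ACO31, MYB93, gst6 and bap-3b show the widest spread within a line.

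Several large differences fell on named genes outside the lists. The wall list's pattern missed the spelling of CslF6-1. Spelling may also have kept m21 and inra2(prp) off a list, which was not checked. The mixed-linkage glucan synthase family gene CslF6-1 had 84.9, 69.7 and 119 CPM in wild type and 197, 290 and 203 CPM in L100, 2.52-fold higher (1.33, SE 0.29, adjusted p = 0.0365). The gene inra2(prp) was 14.2-fold higher (3.83, SE 0.79, adjusted p = 0.0292), with 0.126, 0.802 and 1.19 CPM against 12.1, 16.2 and 2.40 CPM, though limma-voom did not call it. The gene plr354a, at 80.9 to 138 CPM in wild type and 256 to 343 CPM in L100, was 2.77-fold higher (1.47, SE 0.31, adjusted p = 0.0322). The chloroplast intron splicing gene crs1 was 2.50-fold higher (1.32, SE 0.23, adjusted p = 0.0124), from 5.81 to 8.15 CPM to 13.4 to 21.2 CPM. Lower ones were FIP1, at 37.3 to 51.0 CPM against 9.98 to 18.5 CPM (-1.74, SE 0.36, adjusted p = 0.0282), and m21, at 15.4 to 29.9 CPM against 5.55 to 11.6 CPM (-1.49, SE 0.27, adjusted p = 0.0149). Of genes chosen after their values were seen, the tryptophan synthase gene TSA (-0.68, adjusted p = 0.0425), the hydroxyacid oxidase gene hao1 (-0.65, adjusted p = 0.0321) and the autophagy gene Atg12 (-0.90, adjusted p = 0.0248) passed as lower by counts, and ERD3 (0.63, adjusted p = 0.0481) as higher. The Atg12 model overlaps another, and the authors' deposited FPKM went the other way for it, with a mean of 11.6 in wild type and 27.7 in L100, so its direction depends on the unit. Each of these 10 calls ended when any of at least 2 libraries was left out, 1 or more of them wild type at 10 DAP (highest adjusted p 0.219, for ERD3).

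An informative name or a list place was found for 63 of the 749 genes that passed, 33 higher and 30 lower. Without one, GRMZM2G149751 and AC196475.3_FG004 were among the most abundant. Levels of GRMZM2G149751 were 635, 522 and 598 CPM against 901, 973 and 800 CPM (0.61, SE 0.13, adjusted p = 0.0291), and those of AC196475.3_FG004 were 371, 318 and 379 CPM against 637, 762 and 572 CPM (0.88, SE 0.17, adjusted p = 0.0163). Their calls ended without any wild-type library at 10 DAP or L100 2, and that of GRMZM2G149751 also without L100 1 (highest adjusted p 0.145 and 0.102). Both models overlap others. The model Maize_newGene_5835, chosen after its values were seen, had 0.695, 1203 and 716 CPM in wild type and 0.0578, 0.536 and 0.209 CPM in L100. Wild type 1 lay with the L100 libraries there, and the adjusted p of 0.0222 was 0.0812 at its highest without 1 library; limma-voom did not call it. The model GRMZM5G817046 was at 0 in all 3 wild-type libraries at 10 DAP and at 15.7, 19.7 and 21.1 CPM in L100, at least 102-fold higher against a floor of 3 counts per library (adjusted p = 7.6e-06). Maize_newGene_3126 was the reverse, with 10.2, 8.49 and 9.04 CPM in wild type and 0 in all 3 L100 libraries, at least 56.4-fold lower (adjusted p = 0.018). At 10 DAP no count was found in any wild-type library for 54 of the genes that passed as higher, and none in any L100 library for 21 that passed as lower. Some of them had counts in the same line at 15 DAP, such as Maize_newGene_3126 with a mean of 2.49 CPM in L100. Most of these were low, with a median of 3.19 and 1.04 CPM in the other line, and 31 and 14 of them were models named Maize_newGene. Among the models of that name 4.78% passed, and among the other models 2.85%.

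Genes that passed were not spread evenly over the genome. On chromosome 1, 218 of 3880 tested genes passed (5.62%), and on the other numbered chromosomes the share ran from 1.18% on chromosome 9 to 3.94% on chromosome 8. From 200 Mb on in chromosome 1 (B73 RefGen_v3), a boundary chosen with the values known, 189 of 1674 passed (11.3%), 102 higher and 87 lower, against 29 of 2206 before it (1.31%) and 531 of 21061 on the rest of the genome (2.52%). This stretch held 16 of the 39 list members that passed, among them lox3, opr7, fad6, nip3a, HB112, bHLH17, MFSP, hon110 and adh1. Neighbouring genes are not independent of each other, and the share there was not tested against the rest.

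**Figure D5:**
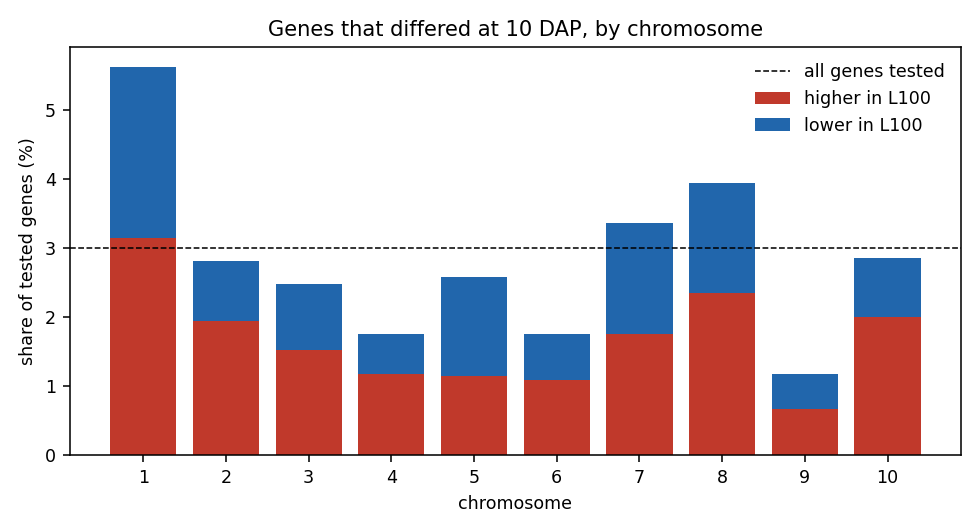
Share of tested genes on each of the 10 numbered chromosomes that passed at 10 DAP, split into higher (red) and lower (blue) in L100; the dashed line is the 3.0% of all tested genes. Among these, chromosome 1 stands highest at 5.62% and chromosome 9 lowest at 1.18%.

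At 15 DAP, where other libraries of the same lines were compared, 1662 of the 24941 genes passed (6.66%). Of the 439 genes higher at 10 DAP, 158 also passed as higher at 15 DAP and 341 had a positive value there. Of the 310 lower at 10 DAP, 77 also passed as lower and 248 had a negative value. In 10 genes the direction was opposite and both passed. Of the 56 named genes that passed at 10 DAP, 16 passed at 15 DAP in the same direction. The difference between the lines changed from 10 to 15 DAP, by a test of that change, in 136 of all tested genes (0.545%).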

How the data were processed

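Whole-seed RNA of wild-type Q319 and transgenic line L100 was sequenced by the authors at 10 and 15 DAP, with 3 libraries per group. Bowtie 0.12.2 and B73 RefGen_v3 were used, per the submitters' processing notes; for the quantifier, annotation, strand setting and filters no source used here gives a name. Per gene model, each deposited table gave expected counts, written by the authors as whole numbers, and these were analysed. The deposited normalized signal is an estimate times 1 factor per library, as inferred from the values, and served only for 1 alternative. The deposited FPKM values entered no test and are given for 1 gene only.

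Analysis was done in R 4.3.3 with edgeR 4.0.16: TMM scaling, filterByExpr, 1 mean per group over all 12 libraries, robust quasi-likelihood F tests (two-sided) and Benjamini-Hochberg adjustment over 24941 genes, threshold 0.05. All 12 libraries share the estimate of spread. Log2 fold changes carry a standard error (SE), and levels are TMM-scaled CPM (counts per 1e+06). Totals at 10 DAP were 14014035 to 16949091 counts, so 3 counts corresponded to 0.157 to 0.2 CPM. The steps were tested on simulated counts.

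For naming alone, gene models were looked up in NCBI's table for assembly Zm-B73-REFERENCE-NAM-5.0, where 18020 were found, 428 with several genes. Gene lists were matched by symbol, and 66 matches were dropped because the name belongs to another kind of gene. A gene whose symbol is spelled otherwise than a list's pattern was not counted, as for CCR, CslF6-1, NRT1.2 and TSA, and possibly m21 and inra2(prp). Members, lists and the boundary on chromosome 1 were chosen with earlier results of these data known. Named genes are the list members that passed, the most abundant member of each list with none, the 10 largest named differences in each direction with at least 5 CPM in the higher group and no overlap, and the 3 most abundant in each direction; some are not described, and others are marked in the text as picked later. The alternatives tried were DESeq2 1.42.0, limma-voom 3.58.1, RLE factors, library totals, 2 filters, a replicate block, the 6 libraries alone, each library left out, and, added after the data were seen, unrounded estimates.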

Additional observations from a re-analysis of the deposited data

Results flagged for a closer look

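The difference between the lines changed from 10 to 15 DAP for 5 named genes, by edgeR's test of the change itself with Benjamini-Hochberg adjustment over all 24941 genes. These genes were named because they passed at 10 DAP, and the test uses the same 10 DAP values. That choice favours a smaller difference at 15 DAP. The 10 DAP calls of CslF6-1, cki2 and AUX6 ended when single libraries were left out. The glucan synthase family gene CslF6-1 was higher in L100 at 10 DAP (1.33, adjusted p = 0.0365) and lower at 15 DAP (-1.10, adjusted p = 0.0473), a change of -2.43 (SE 0.41, adjusted p = 0.0406). The casein kinase gene cki2 was lower at 10 DAP (-0.83) and did not pass at 15 DAP (0.64, adjusted p = 0.0825), a change of 1.46 (SE 0.28, adjusted p = 0.048). The hydroxylase gene BCH2 was lower by more at 10 DAP (-1.49) than at 15 DAP (-0.46, adjusted p = 0.076), a change of 1.03 (SE 0.20, adjusted p = 0.0498). For the cyclin gene cycD2 the values were -0.73 and 0.05, a change of 0.78 (SE 0.14, adjusted p = 0.0419). For AUX6 they were -0.59 and 0.28 (adjusted p = 0.192), a change of 0.86 (SE 0.17, adjusted p = 0.048).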

How the results depend on the processing

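The 749 genes that passed became 2006 with DESeq2, and the 467 with at least a 2-fold difference became 975; 746 and 462 genes were shared with the main sets. With each library left out in turn the counts ranged from 236 to 1261 and from 197 to 728. No paired relation was found: deviations of same-numbered libraries of the lines correlated at -0.064, -0.059 and 0.013. With the replicate number as a block nevertheless, the counts were 390 and 282. The cause of these changes was not tested. The counts stayed within 1.5 times with limma-voom, RLE factors, library totals, both filters, the 6 libraries alone and unrounded estimates; library totals gave 479 higher and 234 lower genes, against 439 and 310. No named gene that passed changed direction under these alternatives. The number of members that passed moved by over 1.5 times in 25 of the 37 lists with DESeq2, in 11 with the replicate block and in 3 to 18 with 1 library left out. List medians near 0 changed sign without 1 library at 10 DAP, among them those of starch, sugar transport, carotenoid and cell cycle genes (-0.03 for the last, without wild type 2). Over the named genes and their alternatives, 335 values no longer passed and 1130 kept their side of the threshold. DESeq2 kept all 56 named calls and limma-voom 50. With 3 libraries per line, small differences and genes near the count filter could not be resolved, and floors cover counting error only.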
